A study of Homo sapiens with 8 samples.

Results

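Cells copy their DNA methylation pattern when they replicate, write new methylation and remove old methylation, and 9 genes encode the core enzymes and readers of these steps. UHRF1, UHRF2, DNMT1, DNMT3A, DNMT3B, TET1, TET2, TET3 and TDG were taken by symbol from a table of 46427 gene symbols, and all 9 passed the filter on low counts that left 18303 genes for testing. They were followed in human H7 embryonic stem cell-derived cells, a cell line labelled with the genotype WT. The cells had been led through endoderm, foregut and lung progenitor stages towards type 2 alveolar cells and ended at an air-liquid interface. The 4 groups were untreated cells and cells with bleomycin, a drug that breaks DNA, on the apical side at 24, 240 or 480 µg/ml for 24 hours in a volume of 500 µl, with 2 libraries per group. The untreated label names no vehicle. The stock solution is labelled as 10 µg/ml, lower than each of the 3 doses. They do not say whether the 2 libraries of a group were separate cultures, so the p-values cover only how far these libraries differ, possibly for technical reasons. The study asked how bleomycin changes fibrosis-related expression in such cells.

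DNA methylation sits on cytosine in CpG pairs. After replication UHRF1 recognises CpG pairs methylated on the old strand only, ubiquitinates histone H3 and recruits DNMT1, which methylates the new strand. DNMT3A and DNMT3B methylate unmodified CpG pairs, TET1, TET2 and TET3 oxidise methylcytosine, and the glycosylase TDG cuts out the oxidised bases so that repair can restore cytosine. UHRF2 resembles UHRF1 and is known for reading hydroxymethylcytosine. UHRF1 transcription is known to follow the cell cycle, with E2F factors among its activators. No methylation was measured here, only messenger RNA.

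Promoter windows of 300 bases (250 before and 50 after an annotated start) were read from RefSeq, build GRCh38.p14, for all 9 genes. The windows of UHRF1, its paralog UHRF2 and its partner DNMT1 are printed because these genes had the closest roles and the levels compared most below. Capitals mark TTTCGCGC, an E2F-type motif that reads GCGCGAAA on the other strand, and the NF-Y motif CCAAT.

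UHRF1, chr19:4909894-4910193, plus strand: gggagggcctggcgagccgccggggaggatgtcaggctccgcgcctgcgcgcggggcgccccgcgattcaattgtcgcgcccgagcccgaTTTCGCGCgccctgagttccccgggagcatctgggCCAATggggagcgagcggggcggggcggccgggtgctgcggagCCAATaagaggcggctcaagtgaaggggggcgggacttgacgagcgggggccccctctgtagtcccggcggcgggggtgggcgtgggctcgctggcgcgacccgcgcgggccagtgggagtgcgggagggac
DNMT1, chr19:10194904-10195203, minus strand: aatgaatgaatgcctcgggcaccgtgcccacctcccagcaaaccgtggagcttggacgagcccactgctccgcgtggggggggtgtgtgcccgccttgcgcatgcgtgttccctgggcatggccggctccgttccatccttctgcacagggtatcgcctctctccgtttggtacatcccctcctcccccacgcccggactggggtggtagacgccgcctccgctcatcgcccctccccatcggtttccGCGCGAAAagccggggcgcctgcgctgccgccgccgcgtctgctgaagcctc
UHRF2, chr9:6412949-6413248, plus strand: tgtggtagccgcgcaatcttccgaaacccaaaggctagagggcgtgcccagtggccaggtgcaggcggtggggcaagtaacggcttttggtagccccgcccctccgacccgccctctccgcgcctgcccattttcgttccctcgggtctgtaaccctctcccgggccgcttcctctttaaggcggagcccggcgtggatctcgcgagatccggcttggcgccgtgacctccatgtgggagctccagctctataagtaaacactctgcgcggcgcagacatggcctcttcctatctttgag

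RefSeq lists several starts for some of these genes, so several windows were searched. UHRF1 had 3 windows, and the motif TTTCGCGC was in 1 of them, the printed one, which was chosen for that match. It held TTTCGCGC with its first base at position -160 from the start and CCAAT at positions -125 and -82. The single DNMT1 window held the E2F-type motif on the other strand at position -2. No window of UHRF2, DNMT3A, DNMT3B, the TET genes or TDG held it. Searched on both strands, TTTCGCGC occurred in 181 of 35116 windows of the same length (0.515%). CCAAT occurred in 34.6% of them. On either strand, it was also in another UHRF1 window and in windows of DNMT3B, TET1, TET3 and TDG. The related motif TTTGGCGC (0.652% of windows) was in none of the 9 genes' windows. Other spellings of E2F-type sites were not searched, so other windows, those of UHRF1 included, may hold one. TTTGAA, the core of the cell-cycle element CHR (15.2% of windows), was in 1 DNMT3A and 1 TET2 window. The printed windows held 40 CpG pairs for UHRF1, 30 for DNMT1 and 26 for UHRF2, beside a median of 14 over all windows. A match describes the letters only, and binding was not measured.

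Total counts ran from 53431773 to 67715984 per library, and a count of 0 allows up to 3 counts, or 0.0443 to 0.0561 CPM (counts relative to library size, with TMM scaling between libraries), for counting error only. Of the 10 type 2 markers, the defining surfactant genes SFTPC and SFTPA1 were near 0: SFTPC had no count in 6 of the 8 libraries and at most 7 in the others, and SFTPA1 had at most 2. SFTPB, a surfactant protein gene, stood at 15.9 ± 1.38 CPM (SD, n = 2) in untreated cells and NKX2-1, the lung transcription factor, at 0.923 ± 0.136. Both fell at 480 µg/ml, with log2 fold changes of -1.30 ± 0.40 and -1.68 ± 0.48 (SE; edgeR adjusted p = 0.0393 and 0.0301). The phosphate transporter SLC34A2 fell from 14.7 ± 0.901 to 1.43 ± 0.194 CPM at that dose, and the lipid transporter ABCA3 rose from 13.1 ± 1.58 to 28.9 ± 4.61 CPM (adjusted p = 0.00029 and 0.00154). The 8 hepatic markers summed to 53633 and 55188 CPM untreated, 58730 and 40251 at 24 µg/ml, 84082 and 77051 at 240 µg/ml, then 68719 and 64202 at 480 µg/ml. Most of each sum was AFP, whose group means were 43349, 39887, 62000 and 49754 CPM in the same order. Of 2 leading principal components, with 49.9% and 12.1% of the variance, the second set the 480 µg/ml libraries apart, at -51.4 and 28.1.

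UHRF1 fell at 240 and 480 µg/ml. It maps to chr19:4903080-4962154 in GRCh38.p14. Its level was 23.4 and 24.2 CPM in the untreated libraries, 20.5 and 22.1 at 24 µg/ml, 6.59 and 7.35 at 240 µg/ml, then 2.63 and 2.84 at 480 µg/ml. No library of one group reached the range of another, and the smallest gap between groups was that between untreated and 24 µg/ml. The group means were 23.8 ± 0.565, 21.3 ± 1.13, 6.97 ± 0.535 and 2.73 ± 0.146 CPM (SD, n = 2), so 89.3%, 29.2% and 11.5% of the untreated level were present at the 3 doses. These are levels in bulk RNA, in which fewer cells of a type and less RNA per cell cannot be told apart.

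**Figure D1:**
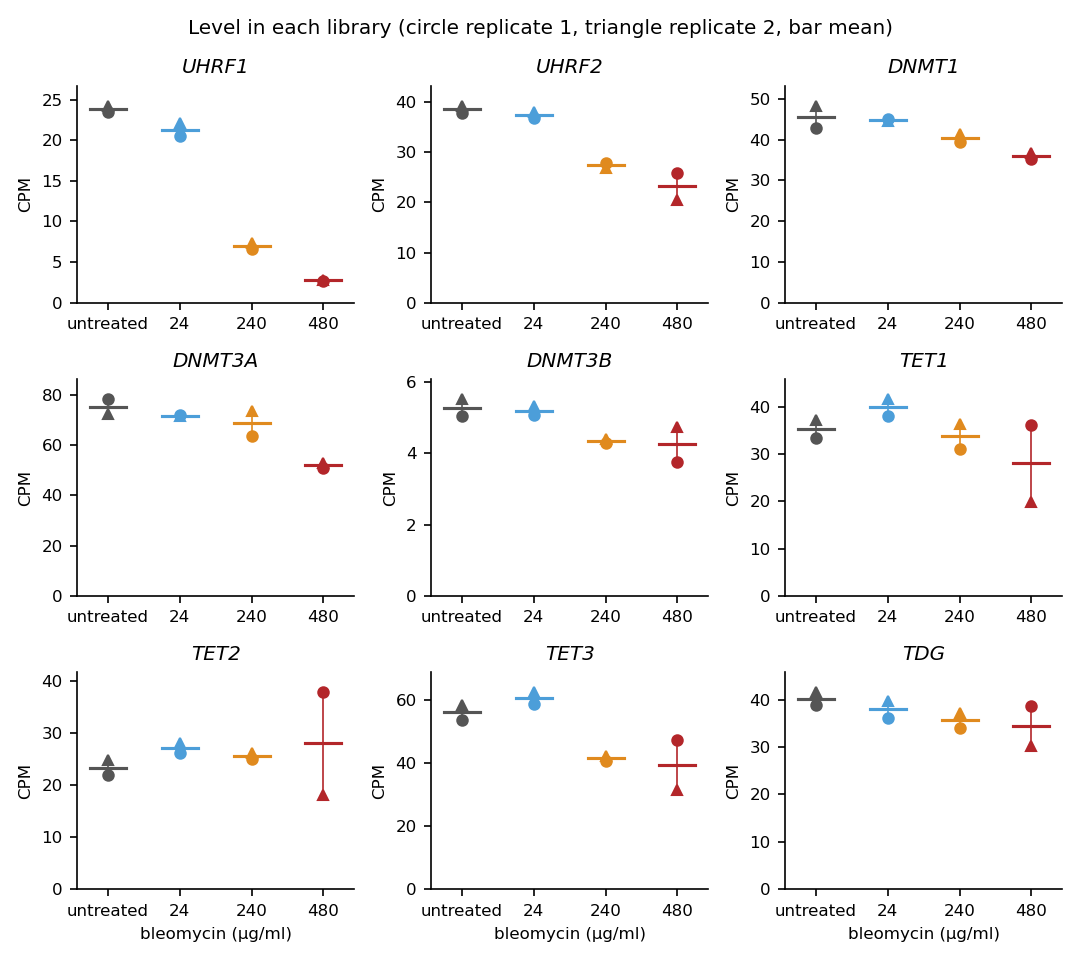
Level of each gene in CPM (y axis, from 0) by bleomycin dose in µg/ml (x axis), with circles and triangles for the 2 libraries of a group and a bar for their mean. UHRF1 goes from a mean of 23.8 (untreated) to 2.73 (480 µg/ml), while the 480 µg/ml libraries of TET1, TET2 and TET3 lie far apart.

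By edgeR's quasi-likelihood test, adjusted over the 18303 genes, UHRF1 at 24 µg/ml differed from untreated cells by a log2 fold change of -0.16 ± 0.12 (SE; adjusted p = 1). At 240 µg/ml it fell by 1.77 ± 0.13 on the log2 scale (3.42-fold; adjusted p = 0.00072), the smallest p but 1 among all genes tested. At 480 µg/ml it fell by 3.12 ± 0.14 (8.72-fold; adjusted p = 5.7e-05), the smallest p of all. Among the 1600 genes called lower at 480 µg/ml whose log2 CPM averaged 3 or more, UHRF1 had the 9th lowest log2 fold change. Both calls held in all 16 alternative analyses, with log2 fold changes of -1.88 to -1.66 at 240 µg/ml and -3.18 to -2.58 at 480 µg/ml.

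Between doses, UHRF1 fell by 1.61 ± 0.13 from 24 to 240 µg/ml (adjusted p = 0.00434). Without replicate 2 of 240 µg/ml the adjusted p of that step was 0.0527. From 240 to 480 µg/ml it fell by 1.35 ± 0.14 (adjusted p = 0.014), a call that 8 of the 16 alternatives lost. Adjusted p rose to 0.197 in a fit of those 2 groups alone, to 0.132 and 0.0596 by limma on TPM, and to between 0.051 and 0.187 without control replicate 1 or 2, replicate 2 of 24 µg/ml, or replicate 1 or 2 of 240 µg/ml. UHRF1 was the only one of the 9 genes called in either step, against 3.49% of all genes called lower from 24 to 240 µg/ml and 0.229% from 240 to 480 µg/ml.

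UHRF2, the paralog, fell at 480 µg/ml. It maps to chr9:6413199-6507054. Its libraries stood at 37.8 and 39.3 CPM untreated, 36.8 and 38.1 at 24 µg/ml, 27.9 and 26.8 at 240 µg/ml, then 25.8 and 20.6 at 480 µg/ml. The groups of 240 and 480 µg/ml lay below all untreated libraries, and the 24 µg/ml libraries overlapped the untreated ones. The log2 fold change at 480 µg/ml was -0.73 ± 0.14 (SE; adjusted p = 0.00481), called in all 16 alternatives with values of -0.92 to -0.58. At 240 µg/ml it was -0.49 ± 0.14 with an adjusted p of 0.0504. That value missed the threshold, and 6 alternatives placed it below (adjusted p = 0.0224 by DESeq2, 0.00193 with only those 2 groups).

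Length-scaled TPM values allow different genes to be compared. The ratio of UHRF2 to UHRF1 in TPM was 1.75 and 1.74 in untreated cells, 1.93 and 1.86 at 24 µg/ml, 4.66 and 4.01 at 240 µg/ml, then 10.98 and 7.83 at 480 µg/ml. The ratio of DNMT1 to UHRF1 was 1.35 and 1.47 untreated, 1.63 and 1.49 at 24 µg/ml, 4.50 and 4.24 at 240 µg/ml, then 10.3 and 9.56 at 480 µg/ml. Each treated group lay above the untreated one in both ratios. With 2 libraries against 2, an exact two-sided permutation test cannot give a p under 0.333, and it gave 0.333 for each of the 6 comparisons.

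DNMT1, the maintenance methyltransferase, did not pass the test at any dose. It maps to chr19:10133346-10194953. Its level was 42.8 and 48.3 CPM untreated, 45.03 and 44.6 at 24 µg/ml, 39.4 and 41.5 at 240 µg/ml, then 35.2 and 36.8 at 480 µg/ml. Both libraries of 240 and of 480 µg/ml lay below both untreated ones. The log2 fold change was -0.024 ± 0.12 at 24 µg/ml, -0.17 ± 0.12 at 240 µg/ml (adjusted p = 0.392) and -0.34 ± 0.12 at 480 µg/ml (adjusted p = 0.0608). The interval of 2 SE at 240 µg/ml ran from -0.41 to 0.064 and at 480 µg/ml from -0.58 to -0.10. Without either library of 480 µg/ml in turn, the adjusted p at that dose was 0.0361 or 0.0236.

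DNMT3A, a de novo methyltransferase, fell at 480 µg/ml. It maps to chr2:25227874-25342590. Its libraries stood at 78.4 and 72.2 CPM untreated, 71.8 and 71.5 at 24 µg/ml, 63.6 and 73.7 at 240 µg/ml, then 50.97 and 52.9 at 480 µg/ml. The 2 libraries of 480 µg/ml were the lowest of the 8, and those of 240 µg/ml overlapped the untreated ones. Its log2 fold change was -0.54 ± 0.12 at 480 µg/ml (SE; adjusted p = 0.0119) and -0.13 ± 0.12 at 240 µg/ml (adjusted p = 0.526). Of the 16 alternatives 3 lost the call at 480 µg/ml: only those 2 groups (adjusted p = 0.0654), without control replicate 1 (0.109) and without control replicate 2 (0.0587). The transcript length implied by its counts and FPKM ran from 6.94 to 9.12 kb across libraries, a 1.31-fold range; over the other genes that range was at most 1.18-fold.

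DNMT3B, the other de novo enzyme, was the lowest of the 9 in untreated cells. It maps to chr20:32762385-32809356. Its level was 5.03 and 5.53 CPM untreated, 5.08 and 5.32 at 24 µg/ml, 4.30 and 4.39 at 240 µg/ml, then 3.77 and 4.75 at 480 µg/ml. Both libraries of 240 and of 480 µg/ml lay below the untreated ones. Its log2 fold changes of -0.28 ± 0.17 at 240 µg/ml (adjusted p = 0.335) and -0.31 ± 0.17 at 480 µg/ml (adjusted p = 0.213) did not pass.

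**Figure D2:**
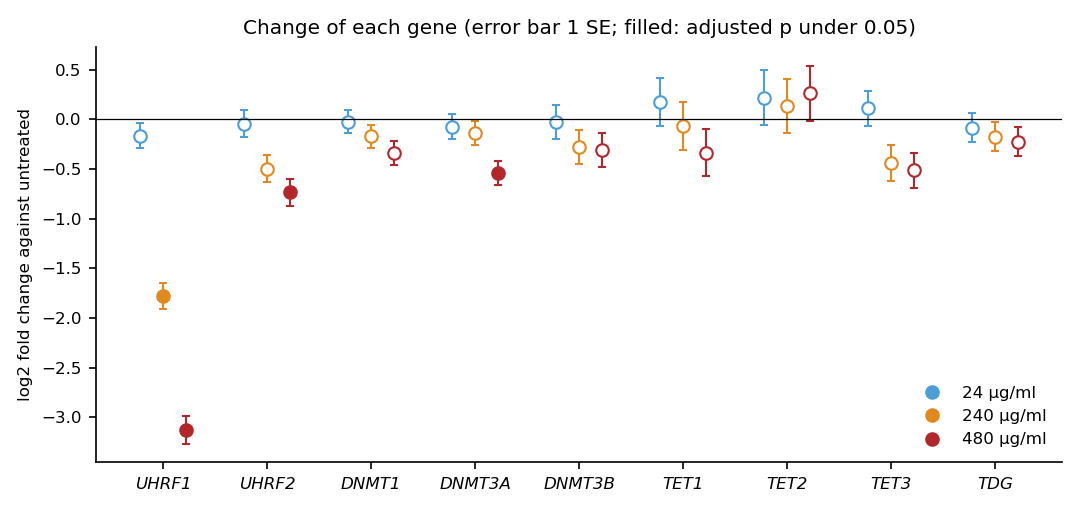
Log2 fold change against untreated cells (y axis) for each gene at 24, 240 and 480 µg/ml, with error bars of 1 SE and filled points where the edgeR adjusted p was under 0.05. UHRF1 is filled at 240 and 480 µg/ml (-1.77 and -3.12), and UHRF2 and DNMT3A are filled at 480 µg/ml.

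The TET genes gave no call at any dose in the edgeR fit of all libraries, and their 480 µg/ml libraries disagreed. TET1, at chr10:68560337-68694487, stood at 33.4 and 37.3 CPM untreated, 38.1 and 41.7 at 24 µg/ml, 31.1 and 36.5 at 240 µg/ml, then 36.2 and 19.9 at 480 µg/ml. TET2, at chr4:105145875-105279803, stood at 21.9 and 24.8 CPM untreated, 26.2 and 28.1 at 24 µg/ml, 25.03 and 26.2 at 240 µg/ml, then 37.8 and 18.2 at 480 µg/ml. TET3, at chr2:73983631-74135498, stood at 53.8 and 58.6 CPM untreated, 58.8 and 62.5 at 24 µg/ml, 40.7 and 42.2 at 240 µg/ml, then 47.3 and 31.4 at 480 µg/ml. At 480 µg/ml the first replicate of TET1 lay within the untreated range and the second below every other library. For TET2 the 2 replicates were the highest and the lowest of all 8, and for TET3 both lay below untreated cells.

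Their log2 fold changes at 480 µg/ml were -0.33 ± 0.24 for TET1 (adjusted p = 0.33), 0.26 ± 0.28 for TET2 (0.508) and -0.51 ± 0.18 for TET3 (0.0633). At 240 µg/ml they were -0.065 ± 0.24, 0.13 ± 0.28 and -0.44 ± 0.18 (adjusted p = 0.893, 0.799 and 0.159). For TET3, whose libraries of 240 µg/ml lay close together and below all untreated ones, 3 of the 16 alternatives called the 240 µg/ml value (adjusted p = 0.00358 with only those 2 groups, 0.00426 and 0.00441 without replicate 1 or 2 of 480 µg/ml). From 24 to 240 µg/ml TET3 gave -0.55 ± 0.18 (adjusted p = 0.101), and 5 alternatives called it, with log2 fold changes of -0.73 to -0.51 over all 16. The library chosen decided the value at 480 µg/ml. Without replicate 1 the log2 fold change was -0.84 for TET1 (adjusted p = 0.00111), -0.37 for TET2 (0.0312) and -0.85 for TET3 (0.000276). Without replicate 2 it was 0.033 (0.864), 0.70 (0.00177) and -0.25 (0.0828). In each of these fits the lone library was assumed to vary like the other groups.

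TDG, the glycosylase that removes oxidised methylcytosine, maps to chr12:103965872-103988874. It stood at 38.8 and 41.6 CPM untreated, 36.2 and 39.7 at 24 µg/ml, 34.1 and 37.2 at 240 µg/ml, then 38.6 and 30.1 at 480 µg/ml. Both libraries of 240 and of 480 µg/ml lay below both untreated ones, at 480 µg/ml by a narrow margin in replicate 1. Its log2 fold changes of -0.17 ± 0.15 at 240 µg/ml and -0.23 ± 0.15 at 480 µg/ml did not pass (adjusted p = 0.492 and 0.278). Without replicate 1 of 480 µg/ml the value at that dose was -0.43 (adjusted p = 0.0123), and without replicate 2 it was -0.059 (0.71).

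The disagreement at 480 µg/ml was largest for the 3 TET genes, which had the longest implied transcripts, but among the other 6 genes it did not follow length. In CPM, replicate 1 over replicate 2 was 2.08 for TET2, 1.82 for TET1, 1.51 for TET3, 1.28 for TDG, 1.26 for UHRF2, 0.964 for DNMT3A, 0.955 for DNMT1, 0.927 for UHRF1 and 0.794 for DNMT3B. The implied transcript lengths were 14.4 to 16.6 kb for TET1, 12.5 to 14.7 kb for TET3 and 9.87 to 10.3 kb for TET2. DNMT3A, at 6.94 to 9.12 kb, and DNMT1, at 5.47 to 5.67 kb, had ratios near 1, and so had UHRF1 at 4.10 to 4.24 kb. TDG and UHRF2 were shorter (3.29 to 3.43 kb and 3.77 to 3.89 kb) and had higher ratios, and DNMT3B, with the lowest ratio, had 4.50 to 4.66 kb. Over 508 genes whose log2 CPM averaged 3 or more, with an implied length over 10 kb, the median log2 ratio of replicate 1 to replicate 2 at 480 µg/ml was 0.48. It was -0.40 over 1880 such genes under 2 kb, whereas in untreated cells the 2 medians were -0.12 and 0.12. The part of length in the TET values was not tested.

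**Figure D3:**
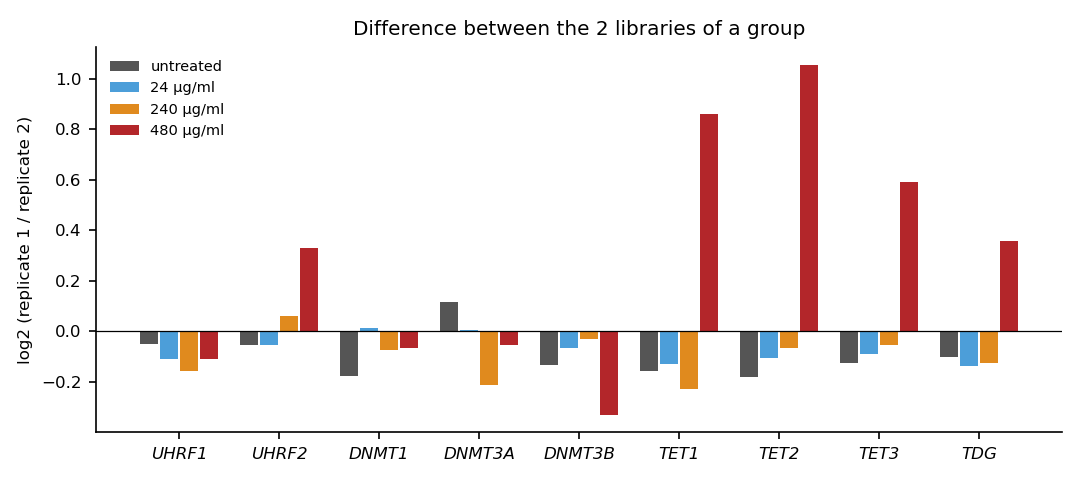
Log2 ratio of replicate 1 to replicate 2 in CPM (y axis, bars from 0) for each gene, with 1 bar per group. The 480 µg/ml bars of TET2, TET1 and TET3 are the tallest (1.06, 0.86 and 0.59).

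Across the 9 genes, 0 were called at 24 µg/ml by edgeR or DESeq2 and 0 had an unadjusted p under 0.05; of all genes edgeR called 0 (0%), DESeq2 called 36 (0.197%), and 605 had an edgeR unadjusted p under 0.05. Of the 9, 2 lay with both libraries below both untreated ones at 24 µg/ml and 3 above, where 17.8% and 18.6% of all genes did. At 240 µg/ml 1 of 9 was called, in the lower direction, where 5.17% of all genes were called lower. At 480 µg/ml 3 of 9 were called, all lower, where 13.9% of all genes were called lower. The median log2 fold change of the 9 was -0.17 (240 µg/ml) and -0.34 (480 µg/ml), beside 0.0091 and 0.010 over all genes. Both libraries lay below both untreated ones for 6 of the 9 at 240 µg/ml (32.2% of all genes) and for 7 of the 9 at 480 µg/ml (30.3%). These comparisons share the untreated libraries.

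By length-scaled level, the order in untreated cells was TDG (29.2 ± 2.67 TPM), UHRF2 (24.7 ± 1.65), DNMT3A (21.9 ± 1.5), DNMT1 (20.04 ± 2.64), UHRF1 (14.1 ± 1.05), TET3 (10.9 ± 1.18), TET2 (5.71 ± 0.697), TET1 (5.39 ± 0.585) and DNMT3B (2.82 ± 0.316; SD, n = 2). The ranges of DNMT3A and DNMT1 overlapped, and so did those of TET2 and TET1. UHRF1 was 5th of 9 untreated and at 24 µg/ml, 8th at 240 µg/ml and 9th at 480 µg/ml, where it stood at 1.53 ± 0.0693 TPM and DNMT3B at 2.17. At 240 µg/ml TET3, TET2 and TET1 had moved ahead of it.

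Other genes of the pathway were read against 5.16% of all genes called higher and 5.17% lower at 240 µg/ml, and 13.9% in each direction at 480 µg/ml. The partners of maintenance methylation moved unevenly. Of 12 tested, 3 fell at 240 µg/ml and 5 at 480 µg/ml, and none rose at either dose. HELLS, a chromatin remodeller needed for methylation of repeats, fell by 0.87 ± 0.16 and 1.32 ± 0.17 on the log2 scale at the 2 doses (SE; adjusted p = 0.0158 and 0.000913). Its activator CDCA7 fell by 0.91 ± 0.17 and 1.19 ± 0.18 (adjusted p = 0.0167 and 0.00174). PCLAF, a PCNA-associated protein that helps recruit DNMT1, fell by 0.63 ± 0.13 and 1.00 ± 0.13 (adjusted p = 0.0204 and 0.00111). The H3K9 methyltransferases SUV39H1 and SUV39H2, named after their values were seen, were the other 2 called at 480 µg/ml (-0.86 ± 0.18 and -0.71 ± 0.15). PCNA, the replication clamp, gave 0.18 ± 0.15 and 0.20 ± 0.15 and was not called. The list's median log2 fold change was -0.28 and -0.26.

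Genes that guide de novo methylation gave 1 call among 6 tested at each dose. NSD2, which writes H3K36me2, fell by 0.70 ± 0.12 at 240 µg/ml (adjusted p = 0.01) and by 0.94 ± 0.12 at 480 µg/ml (0.000861). DNMT3L, the cofactor of the de novo enzymes, had no count in any library. Among 7 methyl-CpG readers, MBD1 rose by 0.45 ± 0.12 and 0.63 ± 0.12 (adjusted p = 0.0486 and 0.00616), and ZBTB38, named after its values were seen, fell at 480 µg/ml (-0.71 ± 0.23; adjusted p = 0.0497). None of 7 TET cofactors and regulators, among them OGT, IDH1 and IDH2, was called at either dose in the edgeR fit of all libraries. DESeq2 called 1 lower at 480 µg/ml. Among the alternatives, 10 gave no lower call at 480 µg/ml for this list, and each of the rest gave at least 1. At 240 µg/ml, 13 alternatives gave no higher call and 13 gave no lower call, so the absence of calls depended on the setting. OGT, which binds TET proteins, had an unadjusted edgeR p under 0.05 at both doses (-0.31 ± 0.13 and -0.39 ± 0.13; adjusted p = 0.165 and 0.0505), the only one of the 7.

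Genes of demethylation and base excision repair, on which TDG relies, moved both ways. Of 14 tested, 3 rose and 2 fell at 240 µg/ml, and 5 rose and 4 fell at 480 µg/ml. GADD45A, a stress-induced gene linked to demethylation, stood at 40.4 ± 1.70 CPM untreated, 67.6 ± 2.93 at 240 µg/ml and 81.5 ± 3.78 at 480 µg/ml (log2 fold changes 0.74 ± 0.14 and 1.01 ± 0.14, adjusted p = 0.0165 and 0.00145). GADD45G rose by 1.67 ± 0.34 and 1.71 ± 0.34 from a low level of 0.662 ± 0.0563 CPM. The uracil glycosylase SMUG1 rose by 0.63 ± 0.17 and 0.88 ± 0.17. UNG, the replication-linked uracil glycosylase, fell by 0.51 ± 0.13 and 0.94 ± 0.13. PARP1, a sensor of strand breaks named after its values were seen, fell by 0.41 ± 0.11 and 0.59 ± 0.11. GADD45A and GADD45G are also known as genes induced by DNA damage.

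The methyl donor cycle, which supplies S-adenosylmethionine to the DNMT enzymes, had 5 of 12 tested genes lower at 240 µg/ml and 6 lower at 480 µg/ml. MTHFD1, which interconverts folate one-carbon units, fell by 0.96 ± 0.13 and 0.97 ± 0.13 on the log2 scale (SE; adjusted p = 0.00427 and 0.0011). Its mitochondrial relative MTHFD2 fell by 0.80 ± 0.14 and 0.97 ± 0.14, and SHMT1, a serine hydroxymethyltransferase, by 0.52 ± 0.12 and 0.79 ± 0.12. MTRR, which reactivates methionine synthase, fell by 0.51 ± 0.13 and 0.58 ± 0.13. The fifth at 240 µg/ml was SHMT2 (-0.60 ± 0.16), named after its values were seen. The median of the list was -0.38, then -0.49.

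**Figure D4:**
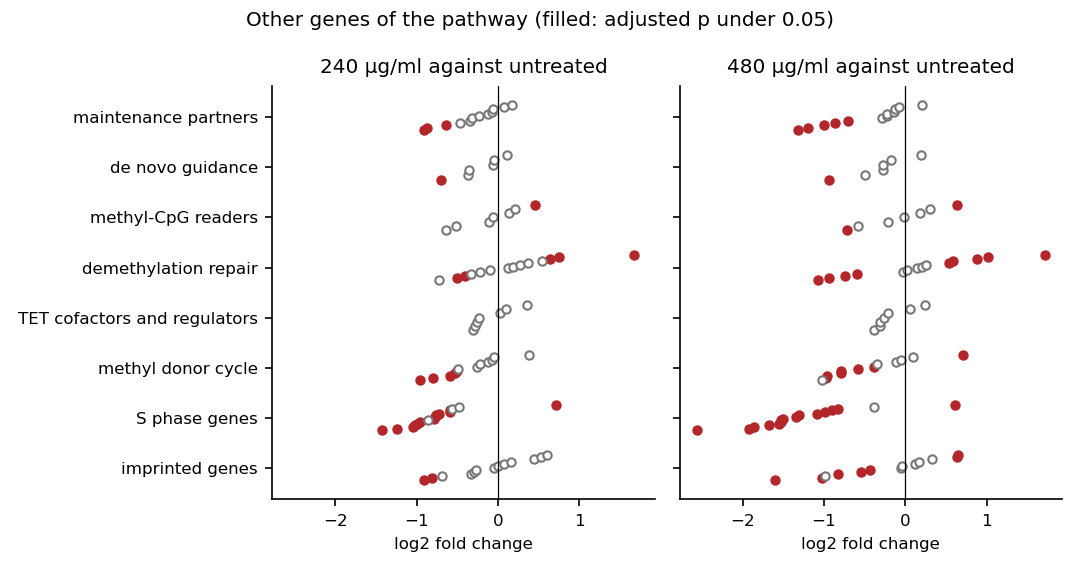
Log2 fold change (x axis) of every tested gene of 8 pathway lists at 240 and 480 µg/ml, 1 point per gene, filled where the edgeR adjusted p was under 0.05. The S phase list has 12 and 14 filled points below 0 and 1 above 0, and the TET cofactor list has none filled.

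UHRF1 moved beside genes of replication and division. Of 16 S phase genes, 12 fell and 1 rose at 240 µg/ml, and 14 fell and 1 rose at 480 µg/ml, with medians of -0.78 and -1.42. The replicative helicase subunits MCM4 and MCM7 fell by 0.96 ± 0.11 and 1.00 ± 0.13 at 240 µg/ml and by 1.53 ± 0.12 and 1.86 ± 0.13 at 480 µg/ml. RRM2, the ribonucleotide reductase subunit, fell by 1.05 ± 0.14 and 1.55 ± 0.14. TYMS, thymidylate synthase, rose by 0.71 ± 0.11 and 0.60 ± 0.11 (adjusted p = 0.00699 and 0.00394). The 6 markers of dividing cells summed to 571 and 591 CPM untreated, 582 and 620 at 24 µg/ml, 322 and 292 at 240 µg/ml, then 214 and 143 at 480 µg/ml. Of these, 4 fell at 240 µg/ml and 6 at 480 µg/ml, where MKI67 changed by -2.28 ± 0.24 and UHRF1 by -3.12 ± 0.14. Markers of other cells shifted at the same doses. Of 6 mesenchymal markers, which summed to 127 to 160 CPM untreated and 83.4 to 92.3 at 480 µg/ml, 2 fell at 240 µg/ml, and 3 fell and 1 rose at 480 µg/ml. PDGFRA changed by -1.13 ± 0.22 and -1.56 ± 0.23 and COL3A1 by -0.81 ± 0.17 and -1.03 ± 0.17. All 8 hepatic markers had log2 fold changes above 0 at 240 µg/ml (median 0.65), of which FGB was called (1.31 ± 0.15). At 480 µg/ml 2 of them were called higher. The 6 intestinal markers summed to 2419 and 2444 CPM untreated and 2924 and 2518 at 480 µg/ml. Of these, 1 rose at 240 µg/ml, and 1 rose and 2 fell at 480 µg/ml. The part of these shifts in the UHRF1 result was not tested.

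**Figure D5:**
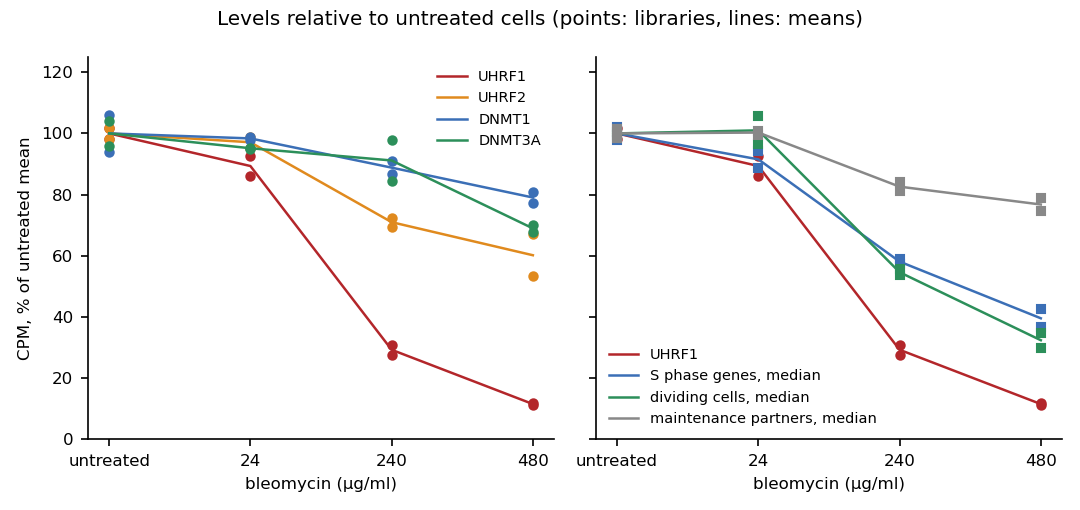
CPM as a percentage of the untreated mean (y axis, from 0) by dose (x axis), with points for libraries and lines for means; the left panel shows 4 of the genes and the right panel sets UHRF1 beside the median gene of 3 lists. UHRF1 reaches 11.5% at 480 µg/ml, where the S phase median is 36.6% and 42.4% in the 2 libraries.

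The tested genes with the profile most like UHRF1 were ranked by Pearson's r of log2 CPM over the 8 libraries, among 9887 candidates whose log2 CPM averaged 3 or more. The first 8 were BIRC5 (r = 0.999), ESPL1, LIN28A, DKC1, FOXM1, KIF20A, KIF18B and TMTC4 (r = 0.996). BIRC5, ESPL1, FOXM1, KIF20A and KIF18B are known genes of mitosis. Pearson's r does not take in the size of a change. Among the 8, LIN28A aside, log2 fold changes at 480 µg/ml ran from -2.28 ± 0.11 (KIF20A) to -1.27 ± 0.11 (FOXM1). That of UHRF1 was -3.12 ± 0.14. LIN28A, an RNA-binding protein of pluripotent and early progenitor cells, fell by 1.68 ± 0.14 at 240 µg/ml and 3.08 ± 0.15 at 480 µg/ml (adjusted p = 0.000876 and 5.7e-05). Of the 7 pluripotency markers, POU5F1 had no count in any library and NANOG at most 3. The markers summed to 34.0 to 39.2 CPM untreated and 6.26 to 6.77 CPM at 480 µg/ml, most of it LIN28A (33.4 ± 3.25 CPM untreated and 3.95 ± 0.172 at 480 µg/ml). Of 4 tested, LIN28A was the only one called at 240 or 480 µg/ml. At 480 µg/ml DPPA4 gave -0.051 ± 0.29, ZFP42 -1.17 ± 0.88 and L1TD1 -0.60 ± 0.26, none of them called. The part of the pluripotency markers in the UHRF1 result was not tested. The genes most like DNMT1 were KAT14 (r = 0.985), POLD3, GPATCH4, DSN1 and CSRP2 (r = 0.965). The points share the 4 groups, so these values describe a shared order of doses.

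Germline genes known to depend on DNA methylation for silencing were near 0 counts in every library. The 17 germline genes summed to 9 and 16 counts in the untreated libraries, 12 and 29 at 24 µg/ml, 15 and 31 at 240 µg/ml, then 36 and 54 at 480 µg/ml. These sums are not scaled to library size, and both at 480 µg/ml lay above both untreated ones. Over the whole table, genes with any count also rose, from 21789 and 22107 untreated to 23612 and 24497 at 480 µg/ml. Whether the germline rise went beyond that was not tested. Of the 17 germline genes only MAEL passed the filter, and it was not called (0.85 ± 1.01 at 480 µg/ml, adjusted p = 0.564). Without control replicate 2, edgeR called 1 germline gene higher at 480 µg/ml. Of 13 imprinted genes tested, 2 fell at 240 µg/ml, and 2 rose and 5 fell at 480 µg/ml. NNAT fell by 0.81 ± 0.16 and 1.61 ± 0.16 (adjusted p = 0.0169 and 0.000368), and DLK1 by 0.90 ± 0.19 and 1.03 ± 0.19 (0.023 and 0.00519). The 2 that rose at 480 µg/ml, named after their values were seen, were SNRPN (0.64 ± 0.20) and NDN (0.63 ± 0.17). Their edgeR adjusted p was 0.0399 and 0.022. The list's median was -0.049 at both doses. The exposure lasted 24 hours, and methylation itself was not measured.

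No gene of these pathway lists was called at 24 µg/ml by edgeR or DESeq2. Of the 88 tested, 5 had an unadjusted edgeR p under 0.05, beside 605 of all 18303 genes. The list counts at 240 and 480 µg/ml depended on which libraries entered. So did the number of all genes called, which the last section gives for the same settings. Whether a list lost or gained more calls than all genes did was not tested. Without control replicate 2, or without replicate 2 of 240 µg/ml, 0 of the 16 S phase genes were called lower. Without control replicate 1 that count was 2, and without replicate 1 of 240 µg/ml it was 4. The maintenance partners, de novo, demethylation and imprinted lists had 0 calls at 240 µg/ml without any 1 of these 4 libraries. The methyl donor list had 0 lower without either control or without replicate 2 of 240 µg/ml, and 2 without replicate 1 of 240 µg/ml or either library of 24 µg/ml. Those libraries of 24 µg/ml also took the 2 lower calls of the demethylation list to 0. The methyl-CpG readers had 0 higher calls at 240 µg/ml when any 1 library of the control, 24 or 240 µg/ml groups was left out, and 0 at 480 µg/ml without either control. Without either library of 480 µg/ml the maintenance partners had 6 lower calls at 240 µg/ml and the de novo list 3.

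At 480 µg/ml the S phase count was 14 in all 16 alternatives, and that of the maintenance partners was 4 to 7. Without control replicate 2, calls at that dose were 1 higher and 2 lower for demethylation genes. Without control replicate 1 the methyl donor list had 3 lower. Without either control the imprinted list had 0 higher and 2 lower. Without either library of 240 µg/ml it had 1 higher and 3 lower, and without either library of 24 µg/ml 1 higher. The methyl-CpG readers had 0 lower calls at 480 µg/ml in 11 of the 16 alternatives.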

How the data were processed

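Per the submitters' processing notes, reads were handled with Trimmomatic, HISAT2, Bowtie2 and StringTie on GRCh38 (hg38). Versions, annotation and counting strand were not given in the sources used here. TruSeq stranded mRNA libraries were made, per the labels' protocols. The authors deposited raw read counts, TPM and FPKM per gene symbol. Tests used the deposited counts. The deposited TPM values served to compare genes and in 2 alternatives. The deposited FPKM values served only to derive implied transcript lengths. Coordinates and promoters are from RefSeq GRCh38.p14, to which 42656 symbols matched.

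edgeR 4.0.16 (R 4.3.3) was run with TMM factors, filterByExpr (10 counts, 15 in total) and a quasi-likelihood model of the 4 groups that took in every library and no covariate (4 residual degrees of freedom). Benjamini-Hochberg adjustment over 18303 genes used a threshold of 0.05. SE is the log2 fold change divided by the square root of F. The 5 comparisons were each dose against untreated cells, 240 against 24 µg/ml and 480 against 240 µg/ml. The method was tested on simulated counts with changes planted only at 240 µg/ml against untreated cells, so the other comparisons were not covered. The 16 alternatives were DESeq2 1.42.0, RLE factors, no filter, a stricter filter (50 counts in 2 libraries), only the 2 groups compared, a replicate block, limma 3.58.1 on log2(TPM + 1) and on log2(TPM + 0.1), and leaving out 1 library at a time. List counts under these settings were added after the data were seen.

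The 9 genes and the lists were chosen with earlier results of these data known. Named from each list were up to 4 called genes with the smallest p at 240 µg/ml and the called gene with the smallest p moving the other way. As most like a gene, 8 were named for UHRF1 and 5 for DNMT1. 1 result of the methyl donor list is not reported here.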

Additional observations from a re-analysis of the deposited data

How the results depend on the processing

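The counts of the 9 genes and of all genes called depended on the setting, and the cause was not tested. For 24 µg/ml, edgeR called 0 genes of all, DESeq2 36, no filter 83, only the 2 groups 14 and limma on log2(TPM + 0.1) 1, with 0 to 24 when a library was left out. For 240 µg/ml, 1 of the 9 was called, and 2 by DESeq2, without a filter or with the stricter filter and 3 in the 2 groups alone (1 to 3 with a library left out). Of all genes 1892 were called, and 2907 without a filter and 5399 in the 2 groups alone (120 to 4982). For 480 µg/ml, 3 of the 9 and 5085 of all genes were called, and 2858 of all genes in the 2 groups alone (2 to 8 and 2248 to 7889 with a library left out).

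For 240 against 24 µg/ml, 1 of the 9 was called, 2 by DESeq2 or without a filter and 3 in the 2 groups alone (0 to 3). Of all genes 1250 were called, 2375 without a filter, 4341 in the 2 groups alone, 783 and 682 by limma with pseudocounts 1 and 0.1 (0 to 4630). For 480 against 240 µg/ml, 1 of the 9 was called and 0 in the 2 groups alone or by limma with either pseudocount (0 to 5). Of all genes 47 were called, 320 by DESeq2, 465 without a filter, 0 in the 2 groups alone, and 11 and 12 by limma (0 to 1471).

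With the replicate number as a block, 621 genes were called for 240 against 24 µg/ml, 8 for 480 against 240 µg/ml, 1289 for 240 µg/ml and 4385 for 480 µg/ml. The counts of the 9 genes were 0, 1, 3, 1 and 1, as without the block. The block took the lower calls at 240 µg/ml from 2 to 0 for demethylation genes and from 5 to 2 for the methyl donor cycle, and the higher call of the methyl-CpG readers from 1 to 0. Deviations of same-numbered libraries correlated at -0.0797 to 0.0449, so the numbers were not taken as pairs.

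Directions changed only for values that edgeR did not call with all 8 libraries. For 480 against 240 µg/ml limma gave 0.0025 and 0.0034 for DNMT3B and 0.025 and 0.021 for TET3. With a library left out, the log2 fold changes spanned 0 for DNMT1 and DNMT3B at 24 µg/ml (-0.11 to 0.063 and -0.091 to 0.042) and for TET1 at 240 µg/ml (-0.19 to 0.043). They did so at 480 µg/ml for TET1 (-0.84 to 0.033) and TET2 (-0.37 to 0.70), and for DNMT3A from 24 to 240 µg/ml (-0.17 to 0.038). From 240 to 480 µg/ml they did so for DNMT3B (-0.21 to 0.12), TET1 (-0.77 to 0.099), TET2 (-0.50 to 0.56), TET3 (-0.41 to 0.19) and TDG (-0.25 to 0.11). Scaling moved the median of all genes by under 0.1 on the log2 scale.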
